A study of Rattus norvegicus with 6 samples.

Results

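The miR-192, miR-194 and miR-215 microRNAs are encoded in 2 small gene clusters, and their levels were examined here in the rat trigeminal ganglion, which holds the sensory neurons of the face. Members were taken by name: every row of the count table whose miRNA has the stem miR-192, miR-194 or miR-215, alone or with an arm suffix. That gave 5 of 650 rows: rno-miR-192-5p, rno-miR-192-3p, rno-miR-194-5p, rno-miR-194-3p and rno-miR-215, written without the species prefix from here on. The rule itself used no measured value, but the family was selected on its counts in these 6 libraries as known from earlier results. Its values are therefore a description and support nothing independently.

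Small RNA was counted in ganglia of Sprague-Dawley rats aged 8 to 10 weeks, taken from the operated side on day 14. In the CCI-ION group (3 libraries) the infraorbital nerve, which carries sensation from the face to the trigeminal ganglion, had been loosely tied with silk to model neuropathic pain. In the sham group (3 libraries) the nerve was exposed and left untied, so both groups had surgery and neither is an unoperated control. The labels do not say that each library is a separate animal, and the spread behind each test may therefore be technical.

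miRNAs repress messenger RNAs that pair with their seed, the bases near the 5′ end. miR-192 and miR-215 share a seed and are usually counted as one family, while miR-194 has a different seed and is made from the same primary transcripts as either of them. The family is best known from kidney, liver and intestinal epithelium and as a target of the tumour suppressor p53.

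The mature sequences show which members can share targets. They are written as RNA from the deposited table, 5′ to 3′, with the seed (bases 2 to 8) in capitals.
miR-192-5p: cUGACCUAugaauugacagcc
miR-215: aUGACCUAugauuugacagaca
miR-194-5p: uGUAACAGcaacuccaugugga
miR-192-3p: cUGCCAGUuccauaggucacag
miR-194-3p: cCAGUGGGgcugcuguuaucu
The seed UGACCUA occurred in 2 of the 650 rows, miR-192-5p and miR-215. Each of the other 3 seeds occurred in 1 row. Counted from base 1 at the 5′ end of miR-192-5p, miR-215 differs by the substitutions C1A, A12U and C20A, all outside the seed, over 21 compared bases. These 2 miRNAs were each other's nearest row in the table. The sources used here do not state how many mismatches the mapping allowed, so some exchange of reads between them cannot be told apart from their own reads.

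RefSeq places the members in 4 hairpins at 2 sites, and these show which mature strands can be traced to one site. The hairpins are given on build GRCr8, all on the plus strand, with the annotated mature strands in capitals. The deposited table carries no coordinates.
Mir194-2, chr1:212994024-212994108: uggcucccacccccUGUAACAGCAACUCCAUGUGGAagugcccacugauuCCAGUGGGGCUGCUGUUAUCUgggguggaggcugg
Mir192, chr1:212994209-212994318: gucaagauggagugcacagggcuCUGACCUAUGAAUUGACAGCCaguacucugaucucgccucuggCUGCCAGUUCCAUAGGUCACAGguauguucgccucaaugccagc
Mir194-1, chr13:99382716-99382798: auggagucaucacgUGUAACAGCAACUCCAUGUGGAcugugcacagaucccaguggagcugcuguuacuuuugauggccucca
Mir215, chr13:99382990-99383086: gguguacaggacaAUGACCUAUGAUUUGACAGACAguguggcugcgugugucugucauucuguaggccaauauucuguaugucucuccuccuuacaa
Mir194-2 and Mir192 are 100 bases apart and lie between the protein-coding genes Atg2a and Ehd1. Mir194-1 and Mir215 are 191 bases apart and lie within the span of Iars2, the gene of mitochondrial isoleucyl-tRNA synthetase. No other hairpin of the RefSeq table lies within 10000 bases of either pair. The mature miR-194-5p is identical in Mir194-1 and Mir194-2, so its counts cannot be assigned to a site. The counted miR-194-3p is found in Mir194-2, and its best match in Mir194-1 differs at 3 of 21 bases (G8A, U19C and C20U, counted from the 5′ end of miR-194-3p).

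The libraries held between 6420434 and 12560545 miRNA counts. In CPM (counts-per-million of all miRNA counts), the floor of 3 counts lies between 0.239 and 0.467, depending on the library. The totals behind the authors' RPM (reads-per-million) values were 24025572 and 24259518 in the sham and CCI-ION libraries numbered 1, against 13793797 to 15228984 in the other 4. The ganglion markers were present: the miRNAs listed as neuronal (15 rows, such as miR-183, miR-124 and miR-9a) summed to 49295 to 62299 CPM in sham and 46412 to 61274 in CCI-ION, and their single changes are given with the other cell type markers. Levels are given as CPM scaled with TMM factors (trimmed mean of M values), and mature miRNAs of 21 or 22 bases need no length correction.

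The members lay at very different levels, in the same order in every library. Of all family counts, miR-192-5p held 72.3%, miR-194-5p 26.6%, miR-215 0.945%, miR-194-3p 0.0959% and miR-192-3p 0.0137%. Among the 650 rows miR-192-5p ranked between 109 and 114 in abundance and miR-194-5p between 151 and 166. miR-215 ranked between 313 and 373 in sham and between 393 and 462 in CCI-ION. The 5 rows together made up 0.0508% ± 0.00158 of the sham miRNA counts and 0.0509% ± 0.00455 of those in CCI-ION (SD, n = 3 each), a difference smaller than the spread between libraries.

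The study set injured against sham ganglia to find miRNAs that the nerve injury alters. Within the family, miR-215 was lower in every CCI-ION library than in any sham library, as were 7.13% of all tested miRNAs. miR-192-5p and miR-194-5p differed by less than the spread between libraries. A sham and a CCI-ION library with the same number are called a pair here. In bulk tissue, fewer cells of a type and less RNA per cell cannot be told apart. A miRNA is called where the Benjamini-Hochberg adjusted p of edgeR's quasi-likelihood test over all tested miRNAs is under 0.05. Of the 5 rows, 3 passed the filter on low counts, each with every library of both groups above the level the filter asks for. The narrowest was miR-215 in CCI-ION library 1, at 0.999 CPM before TMM scaling, where the filter asks for 0.989. By group alone, edgeR called 0.648% of 463 tested miRNAs and 0 of the 3 members. miR-215 was the 1 member with an unadjusted p under 0.05, where 9.94% of all tested miRNAs had one. DESeq2, which called 1.23% of miRNAs by group alone, and limma-voom, which called 0.648%, also called 0 members. With the replicate number as a block, edgeR called 11.7% of the tested miRNAs and 1 of the 3 members, miR-215. DESeq2 with the block called 10% of miRNAs and limma-voom 8.42%, and miR-215 was again the 1 member called by each.

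miR-215, which shares its seed with miR-192-5p and lies within the span of Iars2, stood at 4.51, 5.19 and 11.8 CPM in sham libraries 1 to 3. After injury it stood at 0.948, 3.06 and 2.29 CPM in CCI-ION libraries 1 to 3. Every sham library was above every CCI-ION library, and sham library 3 stood highest, at 2.44 times the mean of the other two. Of the tested miRNAs 7.13% likewise had all CCI-ION libraries below all sham libraries, and 13.8% had no overlap in either direction. These levels rest on 60, 51 and 118 counts in sham and on 11, 19 and 17 in CCI-ION. The exact 95% Poisson intervals, which cover counting error only, were 9.81 to 14.2 CPM for sham library 3 and 3.44 to 5.80 and 3.87 to 6.83 CPM for sham libraries 1 and 2. Sham library 3 thus lay outside the counting error of the other sham libraries. The interval of CCI-ION library 2, 1.84 to 4.77 CPM, overlapped those of sham libraries 1 and 2, and that of CCI-ION library 3, 1.33 to 3.66 CPM, overlapped that of sham library 1, so single libraries of the groups are not all separated at this depth.

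The mean of miR-215 was 7.18 ± 4.05 CPM in sham and 2.10 ± 1.07 in CCI-ION (SD, n = 3 each). The log2 fold change by group alone was -1.82 ± 0.54 (SE), with an edgeR adjusted p of 0.316 and an unadjusted p of 0.0115. With the replicate block miR-215 fell by 1.80 ± 0.32 on the log2 scale (edgeR adjusted p = 2.85e-05). The adjusted p with the block was 0.00252 by DESeq2 and 0.0223 by limma-voom. Within the pairs the log2 difference was -2.25 for number 1, -0.76 for number 2 and -2.37 for number 3, so the pair numbered 2 moved least. The edgeR call with the block was lost without both libraries numbered 3 (log2 fold change -1.46, adjusted p = 0.164). Among the fits by group alone that left out 1 library, the log2 fold change was weakest without sham library 3, at -1.25, and strongest without CCI-ION library 2, at -2.18. By group alone, 2 of the 463 tested miRNAs had a lower log2 fold change than miR-215, as the plot of fold change against level shows.

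**Figure D1:**
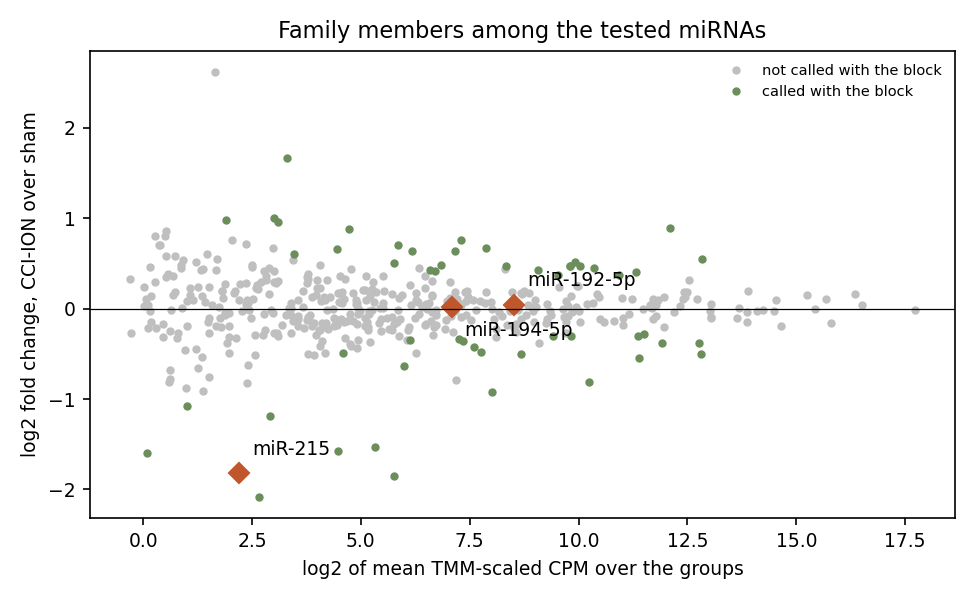
Log2 fold change of CCI-ION over sham by edgeR (group alone, vertical axis) against the log2 of the mean TMM-scaled CPM of both groups (horizontal axis), 1 point per tested miRNA (463). Diamonds mark the 3 tested family members: miR-215 lies at -1.82 among the miRNAs of low level, while miR-192-5p (0.04) and miR-194-5p (0.02) lie on the zero line; green points are other miRNAs called with the replicate block, and miR-215 was called with it as well.

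On the deposited RPM scale miR-215 averaged 4.55 ± 2.84 in sham and 1.01 ± 0.489 in CCI-ION (SD, n = 3 each), again without overlap between groups. On that scale 29.4% of the tested miRNAs had all CCI-ION libraries below all sham libraries. With those RPM totals as library sizes, the log2 fold change of miR-215 was -2.20 ± 0.52 by group alone (edgeR adjusted p = 0.0751). The median over all tested miRNAs was then -0.34.

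miR-192-5p, the abundant member of the shared seed, stood at 334, 393 and 365 CPM in sham, library by library, and at 323, 404 and 394 CPM after injury. The groups overlapped, and the library numbered 1 was the lowest of each group. Its mean was 364 ± 29.4 CPM in sham and 373 ± 43.9 in CCI-ION (SD, n = 3 each). The log2 fold change was 0.04 ± 0.15 by group alone (edgeR adjusted p = 0.98) and 0.03 ± 0.11 with the replicate block (edgeR adjusted p = 0.888). The 95% interval by limma-voom ran from -0.32 to 0.38 on the log2 scale, that is from 19.9% lower (-19.9%) to 30.5% higher, and from -0.17 to 0.23 with the block.

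miR-194-5p, the partner of both clusters with a seed of its own, stood at 125, 142 and 138 CPM in sham, library by library, and at 109, 149 and 153 CPM after injury. Its groups also overlapped, and again the library numbered 1 was the lowest in each group. The mean was 135 ± 8.83 CPM in sham and 137 ± 24.4 in CCI-ION (SD, n = 3 each). The log2 fold change was 0.02 ± 0.17 by group alone (edgeR adjusted p = 0.993) and 0.01 ± 0.11 with the block (edgeR adjusted p = 0.987). The 95% interval by limma-voom ran from -0.40 to 0.41, and from -0.24 to 0.25 with the block. With the RPM totals as library sizes, miR-192-5p and miR-194-5p moved with the other miRNAs, to -0.31 and -0.33 by group alone, close to the median of -0.34.

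**Figure D2:**
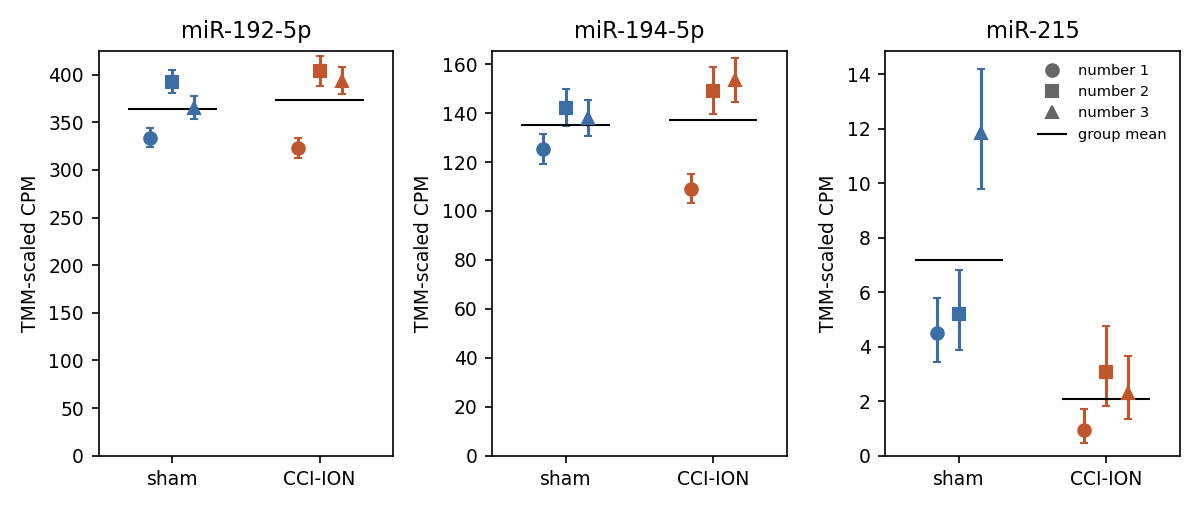
TMM-scaled CPM (vertical axes, each from 0) of miR-192-5p, miR-194-5p and miR-215 in sham (blue) and CCI-ION (orange) libraries; symbols give the library number, error bars the exact 95% Poisson interval of the count and lines the group mean of 3 libraries. The groups overlap for miR-192-5p and miR-194-5p, while all sham libraries of miR-215 (4.51 to 11.8 CPM) lie above all CCI-ION libraries (0.948 to 3.06 CPM).

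The partner strands were rare. miR-192-3p, from the opposite arm of Mir192, had 2, 0 and 0 counts in the sham libraries and 1, 1 and 0 in the CCI-ION libraries, in the order of their numbers. All 6 values are under the floor of 3 counts, so the groups cannot be compared. Over all libraries it made up 4 of 21126 counts of the 2 miR-192 strands, or 0.0189% (exact Clopper-Pearson 95% interval 0.00516% to 0.0485%).

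miR-194-3p, the opposite arm that matches Mir194-2 alone among the hairpins, had 10, 5 and 3 counts in the sham libraries and 3, 5 and 2 in the CCI-ION libraries, in the same order. The groups overlapped, and the row did not pass the filter on low counts. It made up 18 of 4456 counts of both miR-194 strands in sham, or 0.404% (exact Clopper-Pearson 95% interval 0.24% to 0.638%). In CCI-ION it made up 10 of 3341, or 0.299% (0.144% to 0.55%), a difference within the counting intervals. CCI-ION library 3 was under the floor of 3 counts. How many mismatches the mapping allowed is unknown, so reads from Mir194-1 cannot be told apart from those of Mir194-2 with certainty. RefSeq's Mir215 and Mir194-1 entries list no second mature strand.

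Ratios between members within a library do not depend on how that library is scaled. Each miR-194-5p count was matched by 2.67, 2.76 and 2.65 counts of miR-192-5p in the sham libraries, by number, and by 2.96, 2.71 and 2.57 in the CCI-ION libraries. The log2 ratio, with 0.5 count added to each, averaged 1.43 ± 0.03 in sham and 1.45 ± 0.10 in CCI-ION (SD, n = 3 each). The difference was 0.03 (two-sided exact permutation p = 0.8), with the groups overlapping and 1 of 3 pairs in that direction. So miR-192-5p and miR-194-5p kept nearly the same proportion, in spite of levels that differed between the libraries numbered 1 and the others.

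The ratio of miR-192-5p to miR-215 was 74.1, 75.6 and 30.8 in the sham libraries, by number, and 341, 132 and 172 in the CCI-ION libraries. Every CCI-ION library had a higher ratio than every sham library, and the lowest ratio belonged to sham library 3. The log2 ratio averaged 5.79 ± 0.73 in sham and 7.58 ± 0.69 in CCI-ION (SD, n = 3 each). The difference was 1.79 (two-sided exact permutation p = 0.1, the smallest that 3 against 3 allow, and 0.15 adjusted over the 3 ratios), in 3 of 3 pairs. The log2 ratio of miR-194-5p to miR-215 differed by 1.77 in the same direction (4.36 ± 0.71 and 6.13 ± 0.61, SD, n = 3 each, exact permutation p = 0.1, adjusted 0.15), also in 3 of 3 pairs. The 3 ratios share members and so are not independent. With 3 libraries a group, this exact test cannot give a p under 0.05 for either difference.

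**Figure D3:**
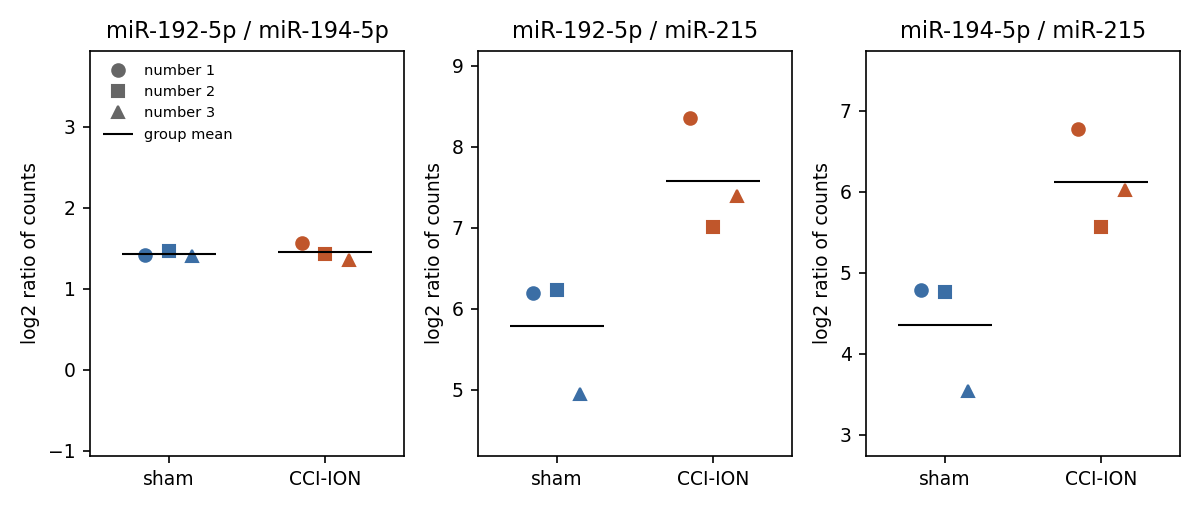
Log2 ratio of counts (0.5 added) of each pair of tested members in each library (vertical axes, each spanning 5 log2 units), sham in blue and CCI-ION in orange, with the library number as symbol and the mean of 3 libraries as a line. The ratio of miR-192-5p to miR-194-5p stays near 1.4 in both groups, and both ratios to miR-215 are higher in every CCI-ION library than in any sham library.

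Because miR-192-5p and miR-215 carry one seed, their summed level was also compared. The sum was 371 ± 30.2 CPM in sham and 376 ± 44.9 in CCI-ION (SD, n = 3 each), a difference well inside the spread. miR-215 made up 1.33%, 1.31% and 3.14% of this sum in the sham libraries, by number. In the CCI-ION libraries it made up 0.293%, 0.752% and 0.578%. The mean level of miR-215 was lower in CCI-ION by 5.08 CPM (a difference of -5.08), smaller in size than the SD of miR-192-5p within either group. The pool of miRNAs with this seed was therefore almost entirely miR-192-5p in every library.

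The profiles of the members over the 6 libraries were compared with those of all tested miRNAs, by the root mean square difference between log2 CPM values centred on each miRNA's own mean. This measure includes the group difference and is a description of these libraries. For miR-192-5p the closest were miR-345-3p (0.0356), miR-16-5p (0.0616) and miR-194-5p (0.0644), where the median over all others was 0.28. For miR-194-5p the closest were miR-495 (0.0436), miR-100-5p (0.0629) and miR-192-5p (0.0644), with a median of 0.299. miR-192-5p and miR-194-5p thus each took place 3 of 462 in the other's order. miR-16-5p and miR-100-5p are uncertain, since miR-195-5p and miR-99a-5p in the same table differ from them by 2 bases and by 1 base.

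For miR-215 the closest profiles were those of miR-217-5p (0.434), miR-216a-3p (0.478) and miR-3571 (0.484), with a median of 1.08. miR-217 and miR-216a are neighbouring genes best known from the exocrine pancreas. miR-217-5p stood at 34.6, 66.0 and 79.1 CPM in the sham libraries, by number, and at 17.1, 23.2 and 22.1 CPM in the injured ones. miR-216a-3p had 29.0, 33.3 and 38.1 CPM in the sham libraries and 9.31, 11.4 and 13.2 in the injured ones. Both had all CCI-ION libraries below all sham libraries and their highest value in sham library 3, as miR-215 did. miR-3571 had 7.06, 12.1 and 11.9 CPM in the sham libraries and 2.67, 7.88 and 3.36 in the injured ones, with overlap between the groups. Between miR-215 and miR-192-5p the measure was 1.01, close to the median for miR-215. miR-192-5p took place 161 of 462 in the order for miR-215, and miR-215 place 455 in the order for miR-192-5p.

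**Figure D4:**
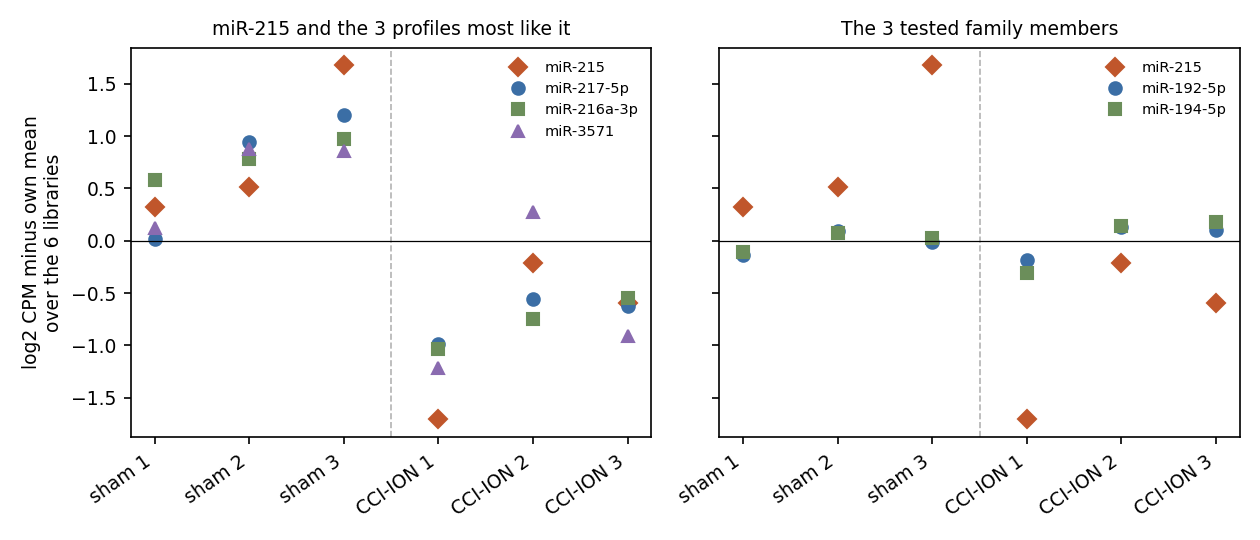
Log2 CPM (prior count 2) minus each miRNA's mean over the 6 libraries (vertical axis) in each library (horizontal axis, sham left of the dashed line), for miR-215 with the 3 closest profiles (left) and for the 3 tested family members (right). miR-215, miR-217-5p and miR-216a-3p are above 0 in all sham libraries and below 0 in all CCI-ION libraries, while miR-192-5p and miR-194-5p stay within about 0.31 of 0.

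Other miRNAs linked to p53 were counted from a list of 10 stems, not all of them targets of p53 alone. Of its 14 tested miRNAs, 0 were called by group alone, and with the block 0 were higher and 1 was lower, miR-34a-5p, a direct transcriptional target of p53. That is 1 of 14, where the block called 11.7% of all tested miRNAs. The level of miR-34a-5p was 483 ± 81.5 CPM in the sham and 340.2 ± 88.9 CPM in the injured ganglia (SD, n = 3 each; log2 fold change with the block -0.53, edgeR adjusted p = 0.000204). The 2 most abundant were not called: miR-143-3p, a smooth muscle miRNA, at 23203 ± 4685 and 22852 ± 6993 CPM, and miR-16-5p at 1155 ± 129 and 1199 ± 116 CPM. The list median was -0.02 on the log2 scale against 0.01 for all tested miRNAs, with 0 of its 14 tested members free of overlap between groups, where 13.8% of all tested miRNAs were.

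Another list was drawn up for gut, liver and kidney epithelium, where this family is usually found, though not all its members are particular to those tissues. It had 14 tested rows. Of these, 0 were called by group alone, and with the block 2 were higher and 0 lower, a share near the 11.7% of all tested miRNAs. miR-205, of squamous and glandular epithelium, rose with the block from 56.6 ± 0.467 to 88.3 ± 9.29 CPM (edgeR adjusted p = 0.000101). miR-10a-5p, from a Hox gene cluster, rose with the block from 1700 ± 447 to 2205 ± 732 CPM (edgeR adjusted p = 0.0113). miR-375-3p, of endocrine and other secretory cells and the second most abundant of the list, was not called, at 184 ± 69.2 CPM in the sham and 106 ± 86.8 CPM in the injured ganglia. The list median was -0.02, and 1 of 14 tested members had no overlap between groups, against 13.8% of all tested miRNAs. miR-122-5p, the defining miRNA of hepatocytes, was at 3.56 ± 2.87 CPM in the sham and 3.26 ± 1.90 CPM in the injured ganglia, and miR-802-5p, of liver and kidney, at 0.0339 ± 0.0588 CPM in sham and at 0 in CCI-ION.

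Markers of other cell types were summed in each library. The 11 rows of the epithelial list summed to 298 to 389 CPM in sham and 264 to 354 in CCI-ION, and the 3 liver rows to 1.51 to 7.14 and 1.93 to 5.43. Leukocyte miRNAs (10 rows) summed to 281 to 314 CPM in sham and 366 to 394 in CCI-ION, without overlap. The sums for skeletal muscle miRNAs (6 rows) were 5202 to 10680 and 3345 to 8424. In 3 of 3 pairs the muscle, neuronal and epithelial sums were lower in CCI-ION, and the leukocyte and blood cell sums were higher. Single rows did not all follow their sums. The lower epithelial sum rested on miR-375-3p, at 259, 171 and 123 CPM in sham, by number, and 206, 58.9 and 53.3 in CCI-ION. miR-205 was higher in 3 of 3 pairs. The largest neuronal row, miR-182, was higher in 3 of 3 pairs, while miR-183-5p and miR-9a-5p were lower in 3 of 3. Sums for blood cell miRNAs (5 rows, 285 to 771 and 408 to 799 CPM), endothelium (2 rows, 10373 to 14748 and 10952 to 15330) and myelinating glia (7 rows, 9537 to 10781 and 9069 to 10411) overlapped between the groups. No row of these lists was at 0 in all libraries. The relation of these sums to the level of miR-215 was not tested.

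Single markers were also counted, to be read against the 11.7% of all tested miRNAs called with the block. None of the neuronal, leukocyte or skeletal muscle markers was called by group alone. The called ones are named here after their values were seen. Of 13 tested neuronal miRNAs, 12 had a negative log2 fold change and 5 had no overlap between groups (13.8% over all tested miRNAs), with a list median of -0.23 against 0.01 for all tested miRNAs. With the block 4 of the 13 fell by edgeR: miR-124-3p, miR-124-5p, miR-129-5p and miR-138-5p. Of 6 tested skeletal muscle miRNAs, 6 had a negative log2 fold change (median -0.49) and 1 had no overlap between groups. With the block 2 of the 6 fell, miR-1b and miR-133a-3p. Both are uncertain, since miR-1-3p and miR-133b-3p differ from them by 1 base. Of 8 tested leukocyte miRNAs, 1 had a negative log2 fold change (median 0.40) and 1 had no overlap between groups. With the block 3 of the 8 rose, miR-142-3p, miR-155-5p and miR-342-3p. Of 6 tested miRNAs of myelinating glia, 3 had a negative log2 fold change (median -0.003) and 1 had no overlap between groups. That 1, miR-219a-1-3p, rose by group alone and with the block, at a log2 fold change of 1.66 (edgeR adjusted p = 0.0239). The part of neuronal, muscle, leukocyte and glial markers in the level of miR-215 was not tested.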

How the data were processed

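The authors deposited raw read counts per mature miRNA for 6 libraries in 1 table, and RPM values in a separate file for each library. Per the submitters' processing notes, cutadapt 1.14, Bowtie 1.1.1 and build rn6 were used. The sources used here do not name the counter or its handling of reads that match several miRNAs. RPM as deposited is the count times 1 constant per library (100% of values gave whole reads within 0.01 read), so the count test on the deposited counts used those same reads. Groups and replicate numbers come from the sample titles.

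The counts were tested with edgeR 4.0.16 (robust quasi-likelihood fit, TMM factors) in R 4.3.3. The filter on low counts (filterByExpr, minimum count 10) kept 463 of 650 rows. SE is the log2 fold change divided by the square root of F. DESeq2 1.42.0, limma-voom (limma 3.58.1), other scalings, no filter, the replicate block and leaving out libraries were the alternatives. Member ratios were compared with exact permutation tests. The fitting procedure was tested on simulated data.

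The main fit has group alone. Deviations from the group means in libraries of the same number correlated at 0.664, 0.591 and 0.457 for numbers 1 to 3. Between libraries of different number the correlations ran from -0.614 to 0.166, the highest for sham library 2 with CCI-ION library 3. Deviations from a group's own mean cancel over its libraries, so positive values for equal numbers push the others down. The contrast is thus partly built in. On this description the numbers were taken to pair the libraries. This pairing was inferred from these data, since the labels do not say what a number means. The blocked value is given wherever it alters a result. Only 2 residual degrees of freedom remain with the block, so that fit borrows most of its variance from other miRNAs.

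The members and lists were chosen with earlier results of these data known. Named miRNAs are all members, the 3 closest profiles of each tested member, and, of the p53-linked and epithelial lists, called members and the 2 most abundant. All 5 member sequences matched RefSeq's mature sequences (GRCr8). Sequences within 2 bases of another row, both read from their first base over at least 19 bases, are named as uncertain. A near match that starts at another base would be missed.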

Additional observations from a re-analysis of the deposited data

How the results depend on the processing

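miR-215 was lower in CCI-ION under all 19 alternatives run, and 6 of them, all with the replicate block, called it. With the block its log2 fold change was -1.80 with edgeR, -1.79 with DESeq2, -1.79 with limma-voom and -2.14 with edgeR on the totals behind the RPM, and it ranged from -2.30 to -1.46 when both libraries of one number were left out (-1.65 without number 1). Over all alternatives its adjusted p ran from 1.57e-06 to 0.807, and without single libraries by group alone from 0.239 to 0.807 at log2 fold changes of -2.18 to -1.25. miR-192-5p and miR-194-5p were called under none of their 19 alternatives, and their direction was not fixed. Without single libraries miR-192-5p ranged from -0.021 (without sham library 1) to 0.13 and miR-194-5p from -0.050 (without CCI-ION library 3) to 0.16. With the block, miR-192-5p was at -0.011 without the libraries numbered 3, and miR-194-5p at -0.074 without those numbered 3 and -0.015 without those numbered 2. miR-192-5p was at -0.31 and miR-194-5p at -0.33 on the totals behind the RPM, -0.31 and -0.34 there with the block, and miR-194-5p was at -0.0065 without the filter on low counts.

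The number of called miRNAs, 3 by group alone, was 8 with DESeq2, 6 on the totals behind the RPM, 6 without the filter, and 1 to 7 without single libraries. With the replicate block it was 54 with edgeR, 45 with DESeq2, 39 with limma-voom, 158 on the totals behind the RPM, and 5 to 45 without the libraries of one number (31 without number 2). The block changed no other call among the members.

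The difference in the log2 ratio of miR-192-5p to miR-194-5p ranged from -0.029 (without CCI-ION library 1) to 0.074 (without CCI-ION library 3). Those of miR-192-5p and miR-194-5p to miR-215 ranged from 1.37 to 2.08 and from 1.35 to 2.04, and within pairs were 1.79 and 1.77 (exact sign-flip p = 0.25, the smallest possible). The family's share of the totals behind the RPM was 0.0315% ± 0.00502 in sham and 0.0250% ± 0.00445 in CCI-ION (SD, n = 3 each). The difference of -0.00649 percentage points was larger in size than either SD. The cause of these shifts was not tested. Depth limits miR-215, with 11 to 118 counts per library, and leaves both 3p strands untestable.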
